A study of Mus musculus with 4 samples.

Results

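The rRNA-region gene models of mouse chromosome 17 (CT010467.1, AY036118 and Gm42418) were described together with the noncoding RNAs Rn7sk, Rmrp, Rpph1, Malat1 and Neat1 and the protein-coding gene Lars2. The 9 symbols were looked up by Ensembl identifier and matched 10 of the 53715 rows of the count table, since Rmrp has 2 nested rows. They were chosen by their shares of counts and CPM in these same 4 libraries, so the values of the Rif1_KO and WT libraries are given as a description, with no test. The RNA came from C57BL/6 mouse cells at E12.5 that were labelled as primordial germ cells, the embryonic precursors of eggs and sperm. There were 2 libraries labelled Rif1_KO, with a knockout of Rif1 as genotype, and 2 labelled WT, with a wild-type genotype. All 4 came from magnetically enriched cells, at 1000 cells per library, and were made by a modified Smart-seq2, which primes full-length cDNA on poly(A) tails, with Tn5 transposase. The deleted part of Rif1 and the bead marker are not given in the sources used here. Whether the 2 libraries of a genotype had separate embryos as their source is likewise not stated.

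Ribosomal RNA makes up most of a cell's RNA: RNA polymerase I copies the rDNA repeats into a precursor that is cut into 18S, 5.8S and 28S rRNA, none of which carries a long poly(A) tail. Rn7sk, Rmrp and Rpph1 are made by RNA polymerase III and likewise end without one. Rn7sk holds the elongation factor P-TEFb in an inactive complex, Rmrp is the RNA of RNase MRP, which cuts the rRNA precursor, and Rpph1 is the RNA of RNase P, which trims tRNA precursors. Malat1 and Neat1 are neighbouring nuclear long noncoding RNAs, the first concentrated in nuclear speckles and the second the scaffold of paraspeckles. RNase P also cuts the Malat1 precursor, which frees a small tRNA-like RNA and leaves a Malat1 end that is A-rich from the genome itself. Lars2 charges the leucine tRNAs of mitochondria.

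A few sequences from these models are printed here, taken from the reference and not from the reads. The first is the start of an 18S-related sequence on chromosome 17 (chr17:39846353-39846452, plus strand, mm10), with the first bases of 18S rRNA in capitals. It is read from the strand opposite to CT010467.1. The next pair comes from Malat1, which is read from the minus strand: a stretch inside the overlapping model Gm37376 (chr19:5801965-5802139) that ends in an A-rich run, in capitals, and the longest run of A in the transcript (chr19:5795968-5796019), in capitals, just before the place where RNase P cuts. The last is the whole interval between Rpph1 and the divergent gene Parp2 (chr14:50807768-50807840, plus strand), with a TATAA in capitals. The transcripts are those of GENCODE M21 on GRCm38, the same build, in which all 10 rows have the same place, and the interval is from RefSeq's promoter of Parp2 (GRCm38.p6).

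18S start opposite CT010467.1: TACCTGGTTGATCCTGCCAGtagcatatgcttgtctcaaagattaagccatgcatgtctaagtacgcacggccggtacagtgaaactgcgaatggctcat
Malat1 bases 534 to 708: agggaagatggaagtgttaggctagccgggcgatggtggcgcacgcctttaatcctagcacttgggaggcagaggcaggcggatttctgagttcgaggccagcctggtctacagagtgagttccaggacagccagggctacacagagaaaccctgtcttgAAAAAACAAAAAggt
Malat1 bases 6654 to 6705: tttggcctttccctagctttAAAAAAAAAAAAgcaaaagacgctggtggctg
Rpph1 to Parp2: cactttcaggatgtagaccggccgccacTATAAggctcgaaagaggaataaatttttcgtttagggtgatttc

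The libraries held 12071903 and 14421298 counts under the label Rif1_KO and 12768932 and 11724630 under the label WT. Rif1 itself went against the labels, with 1144 and 1207 counts in the libraries labelled Rif1_KO and 474 and 44 in those labelled WT, so every direction below is between libraries as labelled. The 18 germ cell markers summed to 43.4 and 45.3 CPM in the Rif1_KO libraries and 66.4 and 534 CPM in the WT libraries, which sets WT replicate 2 apart. CPM is counts per 1000000 of a library total scaled by edgeR's TMM factors. Markers of stromal cells summed to 1585 and 1290 CPM under the label Rif1_KO and 517 and 411 CPM under the label WT, above the germ cell sum in 3 of the 4 libraries. Markers of supporting cells of the gonad summed to 491 and 483 CPM under the label Rif1_KO and 596 and 558 CPM under the label WT, above the germ cell sum in all 4. The 13 markers of red cell precursors in the table, of which none was at 0 in all libraries, summed to 43.8 and 39.4 CPM in the Rif1_KO libraries and 516 and 892 CPM in the WT libraries. Haemoglobin genes took 1.09% and 0.555% of counts in the Rif1_KO libraries and 11.8% and 8.92% in the WT libraries. In bulk RNA, fewer cells of a type and less RNA per cell cannot be told apart.

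The members spanned about the whole range of the table, and the name abundant noncoding RNA fitted only some of them. CT010467.1 ranked between 2 and 5 among all genes by count in every library, Malat1 between 11 and 23, and Lars2 between 37 and 121. Rn7sk ranked between 3489 and 6266, Rpph1 between 4176 and 11477 and Neat1 between 8567 and 11337. The 2 rows of Rmrp held 0 or 1 count in each library and were the only members under the filter on low counts, which 15466 genes of the table passed. Of the 8 member rows past it, 5 were lower in both Rif1_KO libraries than in both WT libraries and 0 were higher in both. The same was true of 18.4% and 21.0% of all genes that passed. Since 3 of those 5 rows are the overlapping models of chromosome 17, they are not 5 separate measurements.

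**Figure D1:**
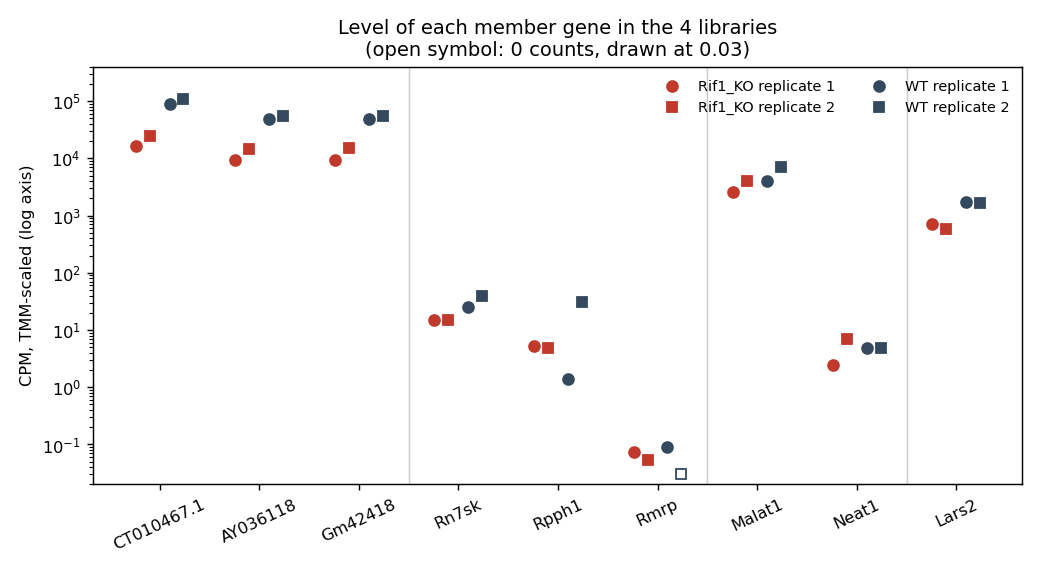
Level of each member gene in CPM on a log axis, with 1 point per library (circles replicate 1, squares replicate 2; Rif1_KO left of WT for each gene). Members span from 110664 CPM for CT010467.1 to under 0.1 CPM for Rmrp (longer row), and the groups are apart for the 3 rRNA-region models, Rn7sk and Lars2.

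The 3 rRNA-region models lie on top of one another. CT010467.1 (ENSMUSG00000106106.2, chr17:39846353-39848827, minus strand) covers 2466 bases of exons and has the biotype rRNA. Gm42418 (ENSMUSG00000098178.1, chr17:39846958-39848788, plus strand) covers 1831 bases, of which 1822 lie inside CT010467.1. AY036118 (ENSMUSG00000105361.1, chr17:39847113-39848035, minus strand) covers 923 bases, and all of them lie inside both other models. The table counted a fragment for every gene it touched, without regard to strand, so any fragment on AY036118 was counted 3 times. The sequence printed above, which opens 18S rRNA, starts at the first base of CT010467.1 on the plus strand, and RefSeq places the 18S-related sequence Rn18s-rs5 there with Gm42418 as another name. CT010467.1 and AY036118 are therefore annotated antisense to 18S, and these counts cannot tell the strands apart. Which copies of the 18S sequence in the genome the fragments came from was not tested.

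CT010467.1 had 216950 and 463197 counts in the Rif1_KO libraries, against 955388 and 1037149 in the WT libraries. Gm42418 had 126245 and 286360 counts under Rif1_KO and 536227 and 515530 under WT. AY036118 had 124214 and 281611 counts in the Rif1_KO libraries and 529448 and 509324 in the WT libraries. All 3 were lower in each Rif1_KO library than in either WT library, and within the group labelled Rif1_KO replicate 1 was the lower of the pair each time. As CPM, CT010467.1 stood at 16226 and 24352 in the Rif1_KO libraries and 87366 and 110664 in the WT libraries, means of 20289 ± 5746 and 99015 ± 16474 (SD, n = 2 each). The ratio of the means, Rif1_KO over WT, was 0.205, and it was 0.234 for AY036118 and 0.235 for Gm42418.

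Because the models share fragments, their sum counts most of the region more than once. On average, a fragment was counted between 2.13 and 2.15 times in Rif1_KO replicate 1, 2.2 and 2.23 times in Rif1_KO replicate 2, 2.1 and 2.12 times in WT replicate 1, and 1.98 and 1.99 times in WT replicate 2. Counted once, the fragments of the region came to at least 1.8% and 3.21% of all counts in the Rif1_KO libraries and 7.48% and 8.85% in the WT libraries. The most they could be, of all counts, was 1.81% and 3.24% in the Rif1_KO libraries and 7.54% and 8.9% in the WT libraries. All counts still include the repeat counts of the region. With AY036118 and Gm42418 out of the totals, the lower bounds were 1.84% and 3.34% (Rif1_KO) and 8.16% and 9.69% (WT). As shares of all counts, the lower bounds averaged 2.5% ± 1 under the label Rif1_KO and 8.16% ± 0.964 under the label WT (SD, n = 2 each), a ratio of 0.307. On the log2 scale that is -1.70 by share of counts and -2.29 by CPM, the difference being the TMM factors of 1.108 and 1.319 for Rif1_KO and 0.8564 and 0.7994 for WT. Between the labels, the shares moved with those of the haemoglobin genes and with the summed markers of red cell precursors given above. Within each label, the library with the higher share of the rRNA region, replicate 2, had the lower haemoglobin share, at 0.555% beside 1.09% for Rif1_KO and 8.92% beside 11.8% for WT. The share of the summed markers of red cell precursors was instead higher in replicate 2. It was 0.00519% beside 0.00485% for Rif1_KO and 0.0713% beside 0.0442% for WT. By CPM, the Rif1_KO pair had the reverse order, 43.8 in replicate 1 and 39.4 in replicate 2. The part of red cells in the difference was not tested. With the haemoglobin genes left out of the raw totals, the log2 ratio by share of counts was -1.85 in place of -1.70.

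**Figure D2:**
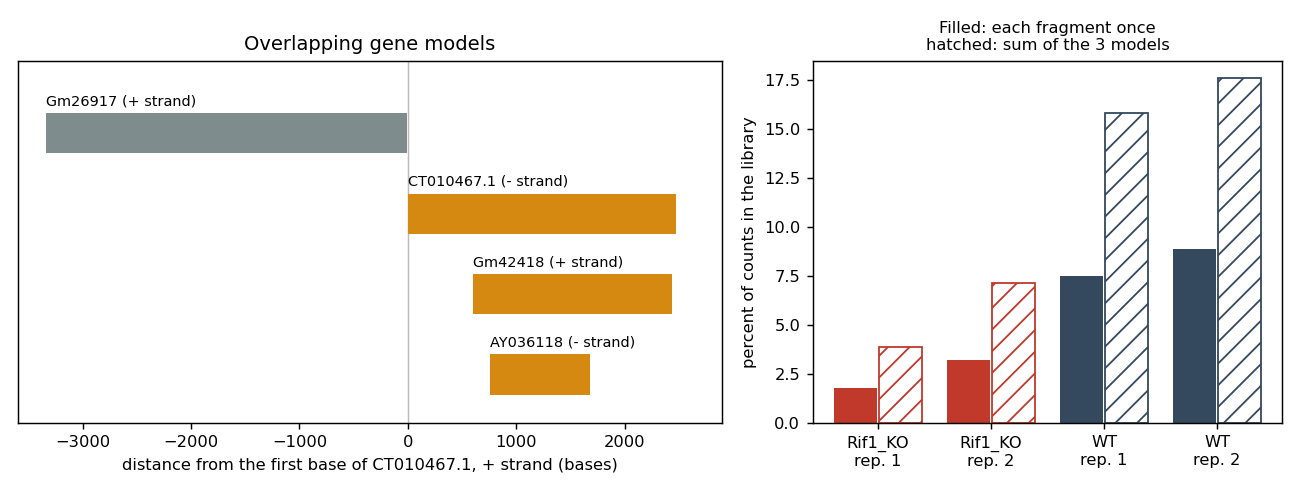
Left: the 3 rRNA-region models and the adjoining Gm26917 by distance in bases from the first base of CT010467.1. Right: percent of a library's counts, with each fragment counted once (filled, lower bound) and as the sum of the 3 models (hatched); the filled bars are 1.8% and 3.21% for Rif1_KO and 7.48% and 8.85% for WT.

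The overlaps also show where on this 18S-related sequence the fragments were counted. AY036118 held 98.4% and 98.3% of the counts of Gm42418 in the Rif1_KO libraries and 98.7% and 98.8% in the WT libraries, although it covers only 923 of its 1831 bases. Fragments that touched CT010467.1 and not Gm42418 can come only from the first 605 bases of the 18S sequence or from 39 bases at the other end. They made up at least 41.8% and 38.2% of CT010467.1 in the Rif1_KO libraries and 43.9% and 50.3% in the WT libraries. WT replicate 2 was the highest of the 4 in this share, and the other libraries lay between 38.2% and 43.9%. In every library nearly all fragments thus touched AY036118 or lay in those end stretches.

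Gm26917, the nearest gene, ends 11 bases before the 18S start (chr17:39843013-39846341, plus strand, 3329 bases). It had 832 and 682 counts in the Rif1_KO libraries and 2484 and 4626 in the WT libraries, which is 0.383% and 0.147% of CT010467.1 under Rif1_KO and 0.26% and 0.446% under WT. It is no member, and its CPM of 62.2 and 35.9 in the Rif1_KO libraries and 227 and 494 in the WT libraries gave a fitted log2 fold change of -2.88 (SE 0.52) with an edgeR adjusted p of 0.571 and a DESeq2 adjusted p of 0.0313. On the other side, the nearest gene past the filter, the red cell membrane gene Rhag, lies 962298 bases away. The other 353 genes of the biotype rRNA held 122 and 53 counts in the Rif1_KO libraries and 189 and 290 in the WT libraries, so CT010467.1 carried almost all counts of that biotype. The 2 rRNAs of the mitochondrial ribosome, which are copied from mitochondrial DNA and are polyadenylated, had fitted fold changes nearer to 0. mt-Rnr1 had 2039 and 1858 CPM under Rif1_KO and 2682 and 3967 CPM under WT, a log2 fold change of -0.77 (SE 0.27; edgeR adjusted p = 0.571). mt-Rnr2 had 16431 and 10621 CPM under Rif1_KO and 16959 and 26814 CPM under WT, with -0.69 (SE 0.33; edgeR adjusted p = 0.629). By share of counts the labels overlapped: the 2 together took 2.05% and 1.65% under Rif1_KO and 1.68% and 2.46% under WT.

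Of the RNA polymerase III transcripts, Rn7sk (ENSMUSG00000065037.1, chr9:78175303-78175633, minus strand, 331 bases) was the best covered. It had 199 and 279 counts in the Rif1_KO libraries and 279 and 371 in the WT libraries. That is 14.9 and 14.7 CPM under Rif1_KO and 25.5 and 39.6 CPM under WT, so the pair labelled Rif1_KO was close together and both WT libraries were higher. The ratio of the means was 0.454 by CPM, a log2 ratio of -1.14 that shrank to -0.58 by share of counts. No gene of the table overlaps it. C920006O11Rik, 280 bases away, had 181 and 1 counts under Rif1_KO and 120 and 2 under WT, so it followed the replicate numbers and not Rn7sk. On the other side lies Ick, a kinase gene, with 106 and 168 counts under Rif1_KO and 36 and 17 under WT.

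Rpph1 (ENSMUSG00000092837.1, chr14:50807449-50807767, minus strand, 319 bases) had 71 and 94 counts in the Rif1_KO libraries and 15 and 289 in the WT libraries. The WT libraries lay on either side of the Rif1_KO pair, and the log2 ratio of -1.65 became 1.90 without WT replicate 2. These counts also cannot be given to Rpph1 alone. Bases 36 to 268 of Rpph1 overlap an exon of Ccnb1ip1, a ubiquitin ligase gene needed for meiotic crossing-over, which is annotated on the same strand. Ccnb1ip1 had 71 and 96 counts under Rif1_KO and 18 and 291 under WT, within 3 counts of Rpph1 in every library. Parp2, a DNA repair gene that starts 73 bases away in the opposite direction, had 726 and 1111 counts under Rif1_KO and 813 and 1232 under WT. Ttc5, the nearest gene past the filter on the other side, had 583 and 207 counts under Rif1_KO and 209 and 723 under WT. The interval between Rpph1 and Parp2 holds 1 TATAA on either strand, 29 bases from the start of Rpph1. A TATAA on either strand occurs in 8.3% of the last 73 bases before the start in RefSeq's 32851 promoters.

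Rmrp was at the limit of detection. The longer row (ENSMUSG00000115420.1, chr4:43492783-43493063, minus strand, 281 bases) held 1 and 1 counts in the Rif1_KO libraries and 1 and 0 in the WT libraries. The shorter row (ENSMUSG00000088088.1, 271 bases, inside the longer one) held 1 and 0 counts under Rif1_KO and 1 and 0 under WT. A count of 0 allows up to 2.08e-05% of Rif1_KO replicate 2 and 2.56e-05% of WT replicate 2, a limit of 3 counts that covers counting error only. Ccdc107, which overlaps Rmrp from the other strand over 124 bases, had 99 and 527 counts under Rif1_KO and 591 and 200 under WT, nearly all of them outside Rmrp. Arhgef39, on one side of Rmrp, had 5 and 158 counts under Rif1_KO and 24 and 3 under WT, and Cd72, on the other, had 10 and 81 under Rif1_KO and 61 and 5 under WT. Per kb of exon, Rpph1 stood at 0.37 and 0.35 of Rn7sk in the Rif1_KO libraries and at 0.0558 and 0.808 in the WT libraries.

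Malat1 (ENSMUSG00000092341.2, chr19:5795690-5802672, minus strand, 6983 bases) had 34633 and 75701 counts in the Rif1_KO libraries and 43521 and 66296 in the WT libraries. That was 0.287% and 0.525% of counts under Rif1_KO and 0.341% and 0.565% under WT, so replicate 2 was the higher of each pair. By CPM, it stood at 2590 and 3980 under Rif1_KO and 3980 and 7074 under WT, and the groups met at Rif1_KO replicate 2 and WT replicate 1. The means were 3285 ± 983 CPM under Rif1_KO and 5527 ± 2188 CPM under WT (SD, n = 2 each). The log2 ratio of -0.75 by CPM was -0.16 by share of counts.

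Most counts given to Malat1 came from a small stretch near its 5′ end. Gm37376, a model on the plus strand marked as still to be experimentally checked, lies over bases 280 to 732 of Malat1, which is 6.49% of its length. It had 27831 and 60602 counts under Rif1_KO and 33353 and 52073 under WT. Strand was not used in counting, so these fragments cannot be assigned to Malat1 or to a plus-strand RNA. Since each fragment on it was also counted for Malat1, it held 80.4% and 80.1% of Malat1's counts in the Rif1_KO libraries and 76.6% and 78.5% in the WT libraries. The 95% Clopper-Pearson intervals, which cover counting error only, were 79.9% to 80.8% and 79.8% to 80.3% for Rif1_KO and 76.2% to 77% and 78.2% to 78.9% for WT. Both Rif1_KO libraries were above both WT libraries, with means of 80.2% ± 0.216 under Rif1_KO and 77.6% ± 1.35 under WT (SD, n = 2 each). Counts per base were 59 and 57.9 times higher inside Gm37376 than in the rest of Malat1 in the Rif1_KO libraries, and 47.3 and 52.8 times higher in the WT libraries.

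That share was set beside the same measure over the table. There were 158 genes with at least 1000 counts over the 4 libraries and a model of 1% to 10% of their exon bases lying wholly inside. The fullest such model held a median of 0.954% of the counts of its host, 12 of the 158 hosts (7.59%) reached 50%, and 2 were above the 79% of Malat1. Further along Malat1 the counts per base were far below those of Gm37376. Gm27694, on bases 3588 to 3673, held 0.217% and 0.166% of Malat1's counts under Rif1_KO and 0.0942% and 0.115% under WT. The model ENSMUSG00000092267, between bases 4124 and 5111, held 0.554% and 0.11% under Rif1_KO and 0.204% and 0.186% under WT.

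**Figure D3:**
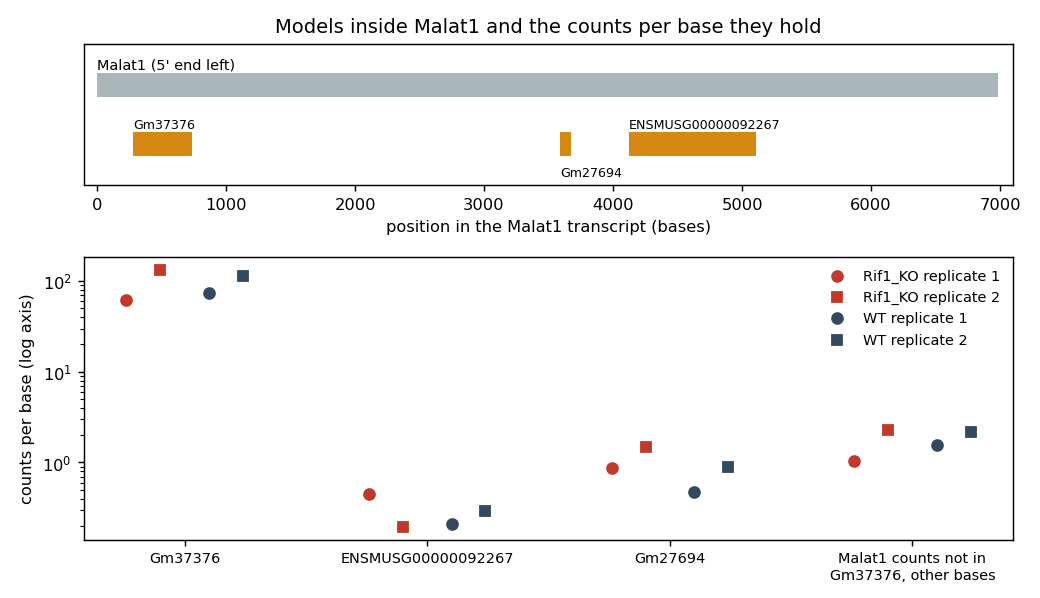
Top: models lying inside Malat1, by position in the transcript in bases. Bottom: counts per base on a log axis in each model and in the Malat1 bases outside Gm37376, with 1 point per library (Rif1_KO left of WT); Gm37376 holds 61.4 and 134 counts per base for Rif1_KO and 73.6 and 115 for WT.

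The Malat1 stretch printed above lies inside Gm37376. Its bases 557 to 703 match Neat1 at bases 11207 to 11352 with 91.8% identity, and they read as a copy of B1, a short interspersed repeat found in a great many places in the mouse genome. How many of the Gm37376 counts came from that repeat was not tested, since the table gives no position within a gene. The longest A run of Malat1 has 12 bases and starts at base 6674, far from Gm37376. A run at least as long occurs in 18.7% of transcripts within 10% of its length. The longest A runs of the RNA polymerase III transcripts were 3 bases in Rn7sk and Rmrp and 2 in Rpph1, those of CT010467.1 and AY036118 were 4, and those of Gm42418 and Lars2 were 6.

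Neat1 (ENSMUSG00000092274.2, chr19:5824708-5845478, minus strand, 20771 bases) had 33 and 133 counts in the Rif1_KO libraries and 53 and 46 in the WT libraries. The Rif1_KO libraries, at 2.47 and 6.99 CPM, lay on either side of the WT libraries at 4.85 and 4.91 CPM. The log2 ratio was -0.04 by CPM, 0.57 by share of counts and 0.20 with upper-quartile factors, so it has no settled sign. Counts this low over so long a transcript come to 0.119 and 0.337 CPM per kb under Rif1_KO and 0.233 and 0.236 under WT. Per kb, Malat1 was 3122 and 1693 times higher than Neat1 in the Rif1_KO libraries and 2443 and 4287 times higher in the WT libraries. Those ratios include the Gm37376 stretch, which held most of Malat1's counts. Outside it, Malat1 had 1.04 and 2.31 counts per base under Rif1_KO and 1.56 and 2.18 under WT. Neat1, outside its short model Gm28006, had 0.0016 and 0.00644 under Rif1_KO and 0.00257 and 0.00218 under WT. Gm27533, Gm27505 and Gm28006, short models inside the first part of Neat1, had between 0 and 2 counts in each library. Frmd8os, an antisense gene 144 bases beyond the Neat1 start, had 12 and 51 counts under Rif1_KO and 21 and 7 under WT.

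Lars2 (ENSMUSG00000035202.8, chr9:123366927-123462666, plus strand, 11089 bases of exons) had 9547 and 10892 counts in the Rif1_KO libraries and 18487 and 15625 in the WT libraries. By CPM it stood at 714 and 573 under Rif1_KO and 1691 and 1667 under WT, means of 643 ± 100 and 1679 ± 16.5 (SD, n = 2 each). Both Rif1_KO libraries were lower than both WT libraries, and the ratio of the means was 0.383. The log2 ratio of -1.38 was -0.85 by share of counts. The next genes past the filter, Scp2-ps2 and Limd1, lie 48928 and 16039 bases away. Scp2-ps2 had 167 and 156 counts under Rif1_KO and 214 and 89 under WT, and Limd1 had 171 and 295 counts under Rif1_KO and 519 and 49 under WT.

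Lars2 stood above the other enzymes of its kind. At 64.4 and 51.6 CPM per kb in the Rif1_KO libraries and 152 and 150 CPM per kb in the WT libraries, it was above every one of 16 other mitochondrial and 20 cytosolic aminoacyl-tRNA synthetases in all 4 libraries. It was 56 and 38.3 times the median mitochondrial synthetase under Rif1_KO and 93.1 and 163 times under WT. The highest of that list was Rars2 in both Rif1_KO libraries, which Lars2 exceeded 3.76 and 1.78 times. In the WT libraries, Lars2 exceeded the highest, Yars2 or Rars2, 18.7 and 21.2 times. Among cytosolic enzymes, the asparaginyl enzyme Nars was the highest in every library, and Lars2 was 1.91 and 1.4 times higher under Rif1_KO and 2.07 and 2.68 times higher under WT. Lars, the cytosolic leucine enzyme, had 18.8 and 21.7 CPM under Rif1_KO and 19.8 and 52.8 CPM under WT. A search at an e-value of 1e-5 found no match between Lars2 transcripts and the other members. It held the members' transcripts only, so matches of Lars2 to any other sequence were not tested.

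**Figure D4:**
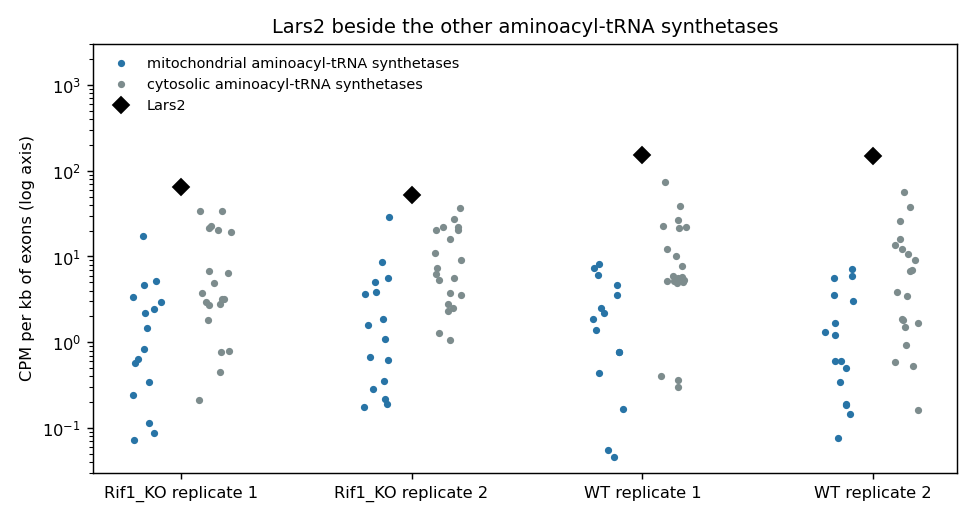
CPM per kb of exons on a log axis in each library for Lars2 (diamonds), the other mitochondrial aminoacyl-tRNA synthetases (left of each diamond) and the cytosolic ones (right). Genes at 0 are not drawn; Lars2 is the highest point in every library, at 64.4 and 51.6 for Rif1_KO and 152 and 150 for WT.

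The genes that act with the members were tested over the whole table. The lists hold 286 symbols in 12 groups, and 254 of their genes were among the 15466 tested with edgeR's quasi-likelihood test. Of these, 0 passed an adjusted p of 0.05, at which 0.0129% of all tested genes, 2 in number, were called. Without adjustment, 9 had a p under 0.05 and higher counts in the Rif1_KO libraries and 8 lower ones, together 6.69% of the list genes, against 8.41% of all genes, 5.35% in the higher and 3.05% in the lower direction. DESeq2 called 4 higher and 1 lower, 2.02% of the 248 list genes with a DESeq2 adjusted p, against 3.65% of all genes with one, 2.31% higher and 1.35% lower. By limma-voom, 0 of them passed. With 2 libraries per group, a gene that misses the threshold is not shown to be unchanged. The median log2 fold change of the list genes was -0.10, against -0.11 for all tested genes. The fold changes of single genes are to be read against that shift, which is -0.19 with DESeq2's size factors and 0.16 with upper-quartile factors.

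For the 7SK particle, 6 of 7 protein genes were tested, with a median log2 fold change of -0.71 and 0 called. The 2 with the smallest p were Mepce, which caps 7SK RNA, with 5.61 and 4.36 CPM under Rif1_KO and 18.6 and 11.1 CPM under WT, and the P-TEFb cyclin Ccnt2, with 34.1 and 21.8 CPM under Rif1_KO and 76.5 and 30.4 CPM under WT. Of the 11 protein genes of RNase P and RNase MRP, 0 were called and 1 was lower with p under 0.05 before adjustment. That gene was Rpp25, with 43.4 and 91.6 CPM under Rif1_KO and 174 and 159 CPM under WT, a log2 fold change of -1.30 (SE 0.48; edgeR adjusted p = 0.575). Rpp40 had 11.1 and 15.1 CPM under Rif1_KO and 1.92 and 0.32 CPM under WT, the other direction.

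The RNA polymerase I list had 21 genes tested, a median of -0.05 and 0 calls. Polr1b, its second largest subunit, had only 4 and 7 counts under Rif1_KO and 92 and 11 under WT, and Polr1d had 64.3 and 62.7 CPM under Rif1_KO and 99.4 and 122 CPM under WT. Among 64 genes of pre-rRNA processing the median was -0.13, where 1 gene higher and 3 lower had p under 0.05 before adjustment. Tsr1, a factor of small subunit maturation, had 553 and 452 counts under Rif1_KO and 13 and 7 under WT. Its log2 fold change was 5.06 (SE 1.30), with an edgeR adjusted p of 0.571 and a DESeq2 adjusted p of 0.000177. Utp4, of the complex that first assembles on the precursor, had 24.2 and 37.2 CPM under Rif1_KO and 99.7 and 78.9 CPM under WT (log2 fold change -1.54, SE 0.57; edgeR adjusted p = 0.573). The 2 genes thus lay in opposite directions within the list.

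Of the RNA polymerase III machinery 27 genes were tested, with a median of -0.02. Gtf3c4, a subunit of TFIIIC, had 156 and 233 counts under Rif1_KO and 6 and 4 under WT, a log2 fold change of 4.59 (SE 1.47) that DESeq2 called (adjusted p = 0.00539) and edgeR did not (adjusted p = 0.571). Polr3d had 57 and 235 counts under Rif1_KO and 13 and 2 under WT. TFIIIC acts at genes with internal promoters, a class to which Rn7sk, Rmrp and Rpph1 do not belong in mammals.

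For Malat1 and Neat1, 18 genes of nuclear speckles and Malat1 processing had a median of -0.25 and 18 paraspeckle genes one of 0.11, with 0 calls in either list. The splicing factor Srsf3 had 428 and 294 CPM under Rif1_KO and 204 and 189 CPM under WT (log2 fold change 0.88, SE 0.33; edgeR adjusted p = 0.577). Son, a core protein of speckles, had 218 and 239 CPM under Rif1_KO and 402 and 323 CPM under WT (log2 fold change -0.67, SE 0.30; edgeR adjusted p = 0.621). Nudt21, which binds Neat1's processing signals, had 106 and 100 CPM under Rif1_KO and 72.2 and 25.7 CPM under WT, and Matr3 had 290 and 273 CPM under Rif1_KO and 223 and 171 CPM under WT.

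The mitochondrial synthetases other than Lars2 had a median of -0.02 over 15 genes tested, and the cytosolic ones -0.21 over 20. Rars2 had 47.4 and 80.5 CPM under Rif1_KO and 7.04 and 19.6 CPM under WT, a direction opposite to that of Lars2 (log2 fold change 2.26, SE 0.84; edgeR adjusted p = 0.575). Ears2 had 8 and 156 counts under Rif1_KO and 122 and 283 under WT. Of the cytosolic enzymes, Yars had 16.8 and 21.1 CPM under Rif1_KO and 72.2 and 72.4 CPM under WT (log2 fold change -1.93, SE 0.63; edgeR adjusted p = 0.571), and Nars had 88.8 and 97 CPM under Rif1_KO and 193 and 148 CPM under WT (log2 fold change -0.88, SE 0.38; edgeR adjusted p = 0.604).

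Other noncoding RNAs of the members' kinds were compared as well. Of 46 long noncoding RNAs that carry poly(A) tails, 39 were tested, with a median of -0.04. Peg13, an imprinted RNA, had 6 and 4 counts under Rif1_KO and 107 and 118 under WT (log2 fold change -5.06, SE 1.53; edgeR adjusted p = 0.571, DESeq2 adjusted p = 0.00132). Hotairm1, from the HoxA cluster, had 20 and 55 counts under Rif1_KO and 0 and 1 under WT. DESeq2 also called Airn and Mir17hg higher, which were chosen to be named after their values were seen: Airn had 5.61 and 8.04 CPM under Rif1_KO and 0.0914 and 0.32 CPM under WT, and Mir17hg had 7.78 and 24 CPM under Rif1_KO and 0.0914 and 1.39 CPM under WT. The list of 35 short structured RNAs summed to only 48.8 and 49.4 CPM under Rif1_KO and 46.5 and 60.1 CPM under WT. Of these RNAs only 13 passed the filter on low counts, with a median of -1.29 and 0 calls. The 2 with the smallest p lay in the other direction: Rnu7 had 56 and 17 counts under Rif1_KO and 0 and 0 under WT, and Scarna13 had 18 and 42 under Rif1_KO and 1 and 2 under WT. Scarna13 lies inside a gene for a longer RNA, so its counts may include that host's fragments.

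**Figure D5:**
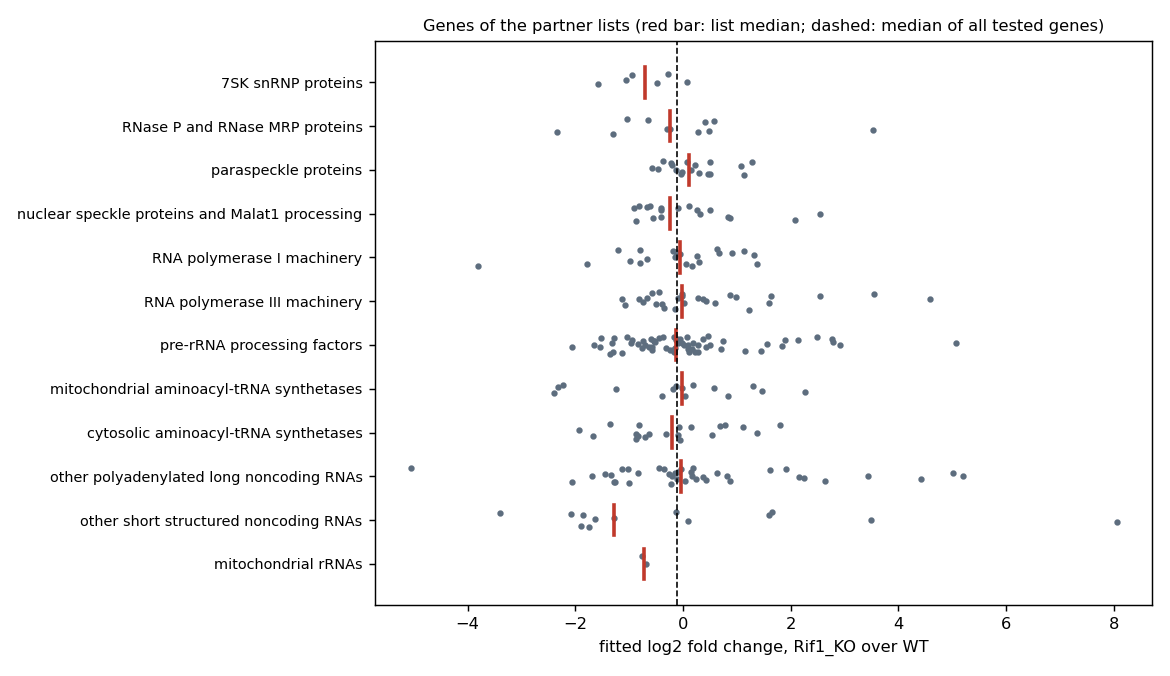
Fitted log2 fold change of Rif1_KO over WT for each tested gene (points) of the 12 lists; the red bar is the list's median and the dashed line the median of all tested genes. Medians lie between -1.29 for the other short structured RNAs and 0.11 for the paraspeckle proteins, and no gene passed the edgeR test.

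Last, the genes whose pattern over the 4 libraries was most like a member's were looked up among 2535 genes with a mean of at least 50 CPM. Likeness was the root mean square difference of log2 CPM after centring each gene on its mean. Nearest to Gm42418 was Gpx1, a glutathione peroxidase, with a difference of 0.18 on the log2 scale and 280 and 346 CPM under Rif1_KO and 1049 and 1327 CPM under WT, followed by Ddx18, Gm44732, Ddb1 and Cat at 0.26 each. Nearest to Rn7sk was the mitochondrial tRNA mt-Ty at 0.066, with 138 and 153 CPM under Rif1_KO and 260 and 383 CPM under WT, and then Pus10, Eps15, Gata6 and 2310031A07Rik at 0.082 to 0.089. Nearest to Malat1 was Gm37376 at 0.027, which shares its fragments, and then Ndufaf7, Polr2c, Kmt2e and Cul3 at 0.04 to 0.089. The likeness rests on 4 libraries and is a description only.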

How the data were processed

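Per the labels' protocols, RNA of 1000 magnetically enriched cells per library went through Smart-seq2 and Tn5 library making. The authors deposited raw whole-number counts, 1 row per gene. The submitters' processing notes name mm10 as the build and featureCounts, HISAT2, SAMtools, Trim Galore and FastQC as the tools. Per the file headers, featureCounts 1.6.2 counted read pairs on GENCODE M17 at a mapping quality of at least 30, for every gene they overlapped (option -O), with multiple alignments allowed (-M) and no strand option. Counts of overlapping models therefore share fragments, and multi-copy sequences are undercounted by the quality limit.

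Groups came from the genotype labels and replicate numbers from the titles. Shares use the deposited totals; their 95% intervals are Clopper-Pearson and cover counting error only. The fewest distinct rRNA-region fragments are the count of CT010467.1, and the most are CT010467.1 plus Gm42418 less AY036118. Genes were kept with filterByExpr (minimum count 10) and tested with edgeR 4.0.16 in R 4.3.3 (TMM, robust quasi-likelihood, Benjamini-Hochberg over all 15466 genes at 0.05), with no covariate. DESeq2 1.42.0 and limma 3.58.1 were alternatives. The steps were tested on simulated data. Sequence matches used BLAST 2.17.0. A p-value here measures the spread between libraries, which can be technical. By edgeR, the biological coefficient of variation came to 0.842.

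The members and gene lists were chosen with earlier results of these data known. Named are all members, the genes overlapping them and the nearest kept gene on each side, per list the called genes or else the 2 with the smallest p, and for 3 members the 5 genes with the likest pattern. A neighbouring gene that this rule names is not reported here. Alternatives were other scaling factors, filters and tools, totals without haemoglobin, mitochondrial or member genes, each library left out and a replicate block. Same-numbered libraries did not deviate together (correlation of deviations -0.0234), so they were not treated as pairs.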

Additional observations from a re-analysis of the deposited data

How the results depend on the processing

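The count of genes called over the table, 2 with edgeR, was 0 with upper-quartile factors and 0 with the stricter filter of 50 counts in 2 libraries, 54 with no filter, 521 with DESeq2, 7 with the replicate block, and 2 with DESeq2's size factors, limma-voom or the members left out. Leaving out 1 library gave 5 to 1345 calls (8 and 5 when Rif1_KO replicate 1 or 2 was dropped, 1345 and 890 when WT replicate 1 or 2 was); the lone library is then assumed to vary like the other group. List genes called numbered 0 with edgeR, 5 with DESeq2, and 0 to 13 with 1 library left out (13 and 11 when WT replicate 1 or 2 was dropped). The causes were not tested.

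The log2 ratio of the rRNA-region fragments, -2.29 by CPM, was -2.61 to -2.02 with 1 library left out. On raw totals it was -1.70, which became -1.85 with haemoglobin and -1.71 with mitochondrial genes left out of those totals. Of 80 recomputed ratios of the 8 kept members, 24 moved by over 1 SD and 7 changed sign. Rpph1 was at 1.90 without WT replicate 2. Neat1 was at 0.20 with upper-quartile factors, 0.03 without member genes and 0.52 without Rif1_KO replicate 1. On raw totals Neat1 was at 0.57, which became 0.42 without haemoglobin and 0.55 without mitochondrial genes. With 2 libraries per group, nothing separates genotype from library.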
